A study of Mus musculus with 12 samples.

Results

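The 33 genes described here make, store, take up and burn glucose in the liver, or carry the insulin and glucagon signals that set these processes. They were taken by gene symbol from a list of gluconeogenesis, glycolysis, glycogen, insulin signalling and glucagon signalling genes. The rule itself uses no measured value, but the genes were chosen with earlier results of these data known. All 33 were found among the 17871 genes of the expression table, and all 33 were among the 12896 genes that passed the filter on low counts (0.593 CPM, about 10 counts, in at least 3 libraries). Ppp1r3g reached this level in only 2 libraries outside BA10, the group in which it was highest, and so was tested only because it was high there. Liver RNA of 12 male mice was sequenced to learn how alginate oligosaccharides (AOS), short chains cut from a seaweed polysaccharide, act on livers injured by busulfan, an alkylating drug used before bone marrow transplantation. The mice were 3 weeks old at the start, and their strain is labelled IRC mouse and called ICR in the study's methods. BA10 mice (n = 3) received busulfan once at 40 mg/kg and AOS by gavage at 10 mg/kg each morning for 5 weeks. BA0 mice (n = 3) received the same busulfan dose and water, A10 mice (n = 3) received AOS at 10 mg/kg without busulfan, and A0 mice (n = 3) received water only. Each library is the liver RNA of 1 mouse, and busulfan given by injection acts on other organs too. Whether the mice were fasted, and at what hour the livers were taken, the sources used here do not state.

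As background, the liver keeps blood glucose steady between meals. After a meal insulin acts through its receptor and the IRS adaptor proteins, the forkhead factor FOXO1 leaves the nucleus, glycogen is built and glycolysis feeds fat synthesis. In a fasted animal glucagon raises cAMP, the factor CREB binds cAMP response elements, and the genes G6pc, Pck1, Ppp1r3g, Sik1 and Crem are switched on, while FOXO1 keeps Irs2 and G6pc active. Fed livers hold more mRNA of Pklr, Khk and Ppp1r3b and of fat synthesis genes such as Fasn, and fasted livers also hold more mRNA of targets of the fatty acid receptor PPARα such as Cyp4a14. A fasted liver is therefore usually recognised by high cAMP and FOXO1 targets, high PPARα targets and low fat synthesis genes together.

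Library totals ranged from 16439485 to 18174565 estimated counts. The tissue label reads "Cells", but albumin mRNA (Alb) was at 56039 to 85534 CPM (counts scaled to the size of the library), a level that marks liver tissue. Replicates 1 and 2 of A0 stood apart from the other 10 libraries, since their log levels followed gene length and GC (22.9% and 15% of the variance lay in these trends, against 0.3% to 6.4% in the others). For part of the results, values against A0 are therefore also given with these trends removed, or without those 2 libraries. Compared to A0, edgeR called 896 higher and 411 lower genes in BA10, 527 and 296 in BA0, and 276 and 193 in A10. Genes called higher made up 68.6%, 64% and 58.8% of these calls in BA10, BA0 and A10, but 42.5%, 37.9% and 32.7% with upper-quartile scaling in place of TMM scaling. BA0 replicate 2 held pancreatic transcripts, 6 acinar markers summing to 257 CPM there and to 10.1 CPM or less in the other 11 libraries. Counts of Tpi1 and Eno1 had decimals in 12 of 12 libraries, those of Pgk1 in 8, Pfkl in 6 and Gpi1 in 4, so reads shared with near-identical copies may have been split and these 5 genes are uncertain. The strand of the libraries is not given, and in GENCODE the exons of 9 members overlap those of a gene on the other strand, over 30.9% of the exon bases of Irs1, 22% of Pklr, 11.5% of Gpi1, 8.01% of Crem, 7.78% of Foxo1 and 1.24% to 3.06% of Pfkfb1, Irs2, Ugp2 and Tpi1. Reads of both strands cannot be told apart there.

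The promoters of G6pc, Pck1, Irs2 and Ppp1r3g are shown because these members had their highest mean level in BA10 livers, and because cAMP and insulin act on liver genes through such sequences. RefSeq promoter windows (250 bases before to 50 after a start site, build GRCm38.p6) were matched by gene ID for 28 of the 33 members. Capitals mark the insulin response core TGTTTTG or the shorter cAMP response element TGACG, which reads CGTCA on the other strand. Both strands were searched. The G6pc stretch is chr11:101367482-101367560 (bases -234 to -156 from the start site, plus strand), that of Pck1 chr2:173152923-173153047 (-150 to -26, plus strand), that of Irs2 chr8:11008930-11009026 (-97 to -1, minus strand) and that of Ppp1r3g chr13:35967856-35967880 (-50 to -26, plus strand). The Ppp1r3g site lies in the first exon of a longer GENCODE transcript, and the other 3 stretches end before any annotated exon of their gene, that of Irs2 overlapping the noncoding gene 9530052E02Rik on the other strand.
G6pc: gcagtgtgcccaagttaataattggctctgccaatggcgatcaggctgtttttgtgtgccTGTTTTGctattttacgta
Pck1: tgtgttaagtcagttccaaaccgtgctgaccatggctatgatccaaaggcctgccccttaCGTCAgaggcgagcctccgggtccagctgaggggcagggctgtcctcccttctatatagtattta
Irs2: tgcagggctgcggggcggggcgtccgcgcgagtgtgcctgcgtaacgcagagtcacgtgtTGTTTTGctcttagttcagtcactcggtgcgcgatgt
Ppp1r3g: gggaggacctTGACGtgctctagtg
The shorter element was in 11 of 38 windows of 9 members, 28.9% against 20.8% of all 32851 windows. The full element TGACGTCA, which contains the shorter element on each strand, was in the window of Ldha alone (1.79% of all windows). TGTTTTG was in the windows of G6pc, Gckr, Irs1 and Irs2 (6.28% of all windows), and the forkhead site TGTTTAC, which shares its first 5 bases, was in 0 member windows (3.65% of all windows). A match is a description of letters and not of a bound site.

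BA10 livers had the highest mean level of G6pc, Pck1, Irs2, Ppp1r3g and Sik1 of the 4 groups, all of them genes that are high in fasted liver. Members outside that list were also highest there by mean, among them Ppp1r3b, a gene of the fed liver, and Irs1, Foxo1, Foxo3, Pfkfb3, Eno1 and Slc2a2. The share of all genes with their highest mean in BA10 was not counted. Compared to A0, 5 members were higher in BA10 (G6pc, Ppp1r3g, Irs1, Irs2 and Foxo1) and 1 was lower (Serpina12), by edgeR at an adjusted p under 0.05. These 6 of 33 (18.2%), or 5 of 32 (15.6%) without Ppp1r3g, which passed the filter only through BA10, stand beside 10.1% of all 12896 genes tested. Compared to BA0, which also had busulfan, edgeR called 0 members (0.0543% of all genes), 4 members had an unadjusted p under 0.05 (G6pc, Ppp1r3g, Irs2 and Sik1, all higher in BA10, against 4.44% of all genes), DESeq2 called 3 (G6pc, Ppp1r3g and Sik1, against 0.287%) and limma-voom called 0 (0.0388%). Without Ppp1r3g, 3 of 32 members had an unadjusted p under 0.05 against BA0, and of the DESeq2 calls G6pc and Sik1 remain. The median log2 fold change of the 33 members was 0.14 against BA0 and 0.05 against A0, where the medians of all genes were -0.01 and 0.01. In BA10, 4 members (G6pc, Ppp1r3g, Pgk1 and Irs2) were above every BA0 liver and 0 were below, where 10.8% of all genes did not overlap. Against A0, 9 members were above and 5 below without overlap, where 34.9% of all genes did not overlap. Ppp1r3g is in both counts and is given there as a description only.

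**Figure D1:**
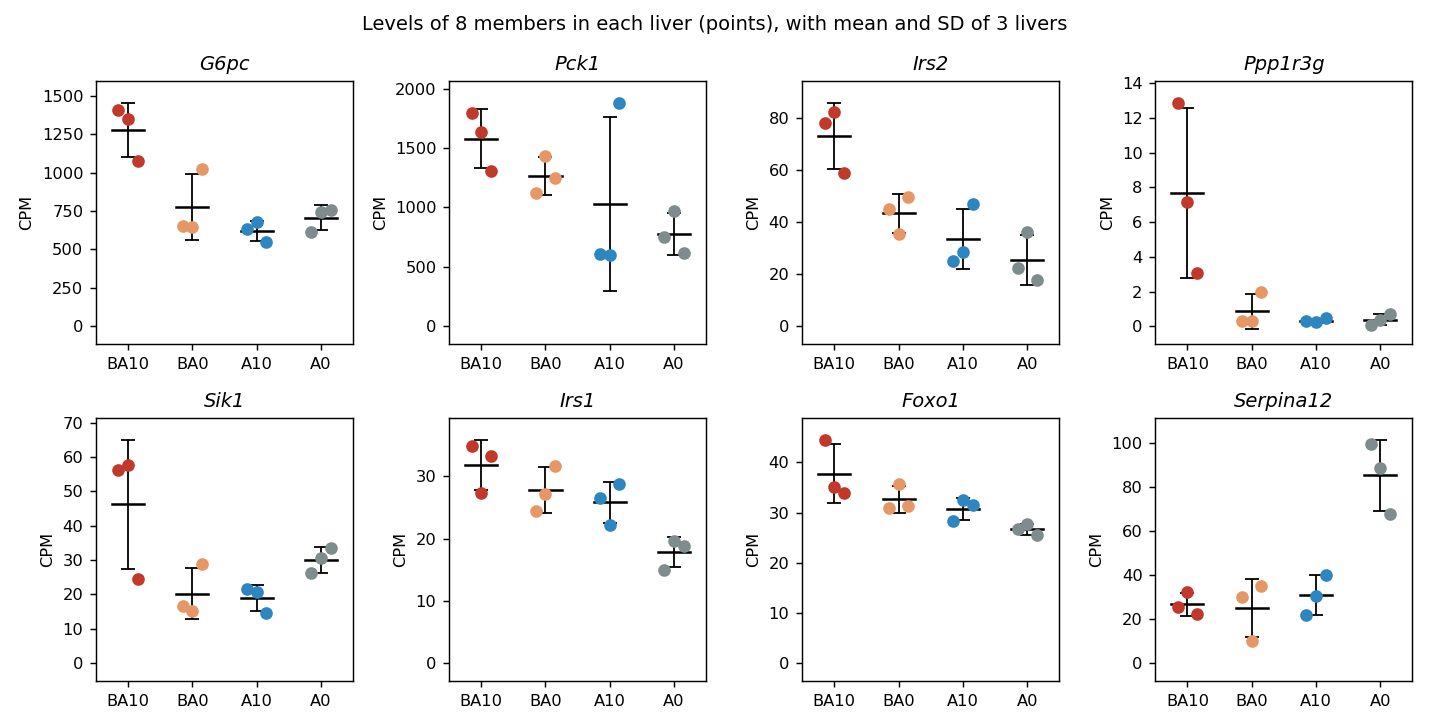
Level in CPM (y axis) of 8 members in each liver (points) of the groups BA10, BA0, A10 and A0 (x axis), with the mean (long line) and SD of 3 livers (bars). G6pc, Irs2 and Ppp1r3g were higher in all 3 BA10 livers than in any other liver, and Serpina12 was highest in the 3 A0 livers.

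Among the genes of glucose production, G6pc and Pck1 were high in BA10, and Fbp1 and Pcx were not. G6pc encodes the catalytic subunit of glucose-6-phosphatase, which releases glucose from the hepatocyte (gene 14377, chromosome 11, 101367716 to 101377903 of mm10, the build of the coordinates that follow). It was at 1405, 1346 and 1077 CPM in BA10, at 655, 648 and 1021 in BA0, at 631, 681 and 548 in A10 and at 612, 745 and 759 in A0. All 3 BA10 livers were above the other 9, of which BA0 replicate 3 came nearest. Compared to A0, G6pc rose 1.81-fold (log2 fold change 0.86 with SE 0.18, adjusted p = 0.021), compared to BA0 the log2 fold change was 0.72 (SE 0.18, adjusted p = 0.629, and 0.0406 by DESeq2), and compared to A10 it was 1.04 (adjusted p = 0.0663).

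Pck1 encodes phosphoenolpyruvate carboxykinase, an early enzyme of glucose production (gene 18534, chromosome 2, 173153073 to 173159274). It was at 1791, 1636 and 1310.1 CPM in BA10, at 1118, 1435 and 1251 in BA0, at 609, 601 and 1876 in A10 and at 750.3, 968 and 619.5 in A0. Every BA10 and every BA0 liver was above every A0 liver, but the highest level of all 12 was in A10 replicate 3. With all libraries Pck1 was not called in BA10 against A0 (log2 fold change 1.02 with SE 0.38, adjusted p = 0.1) or in BA0 against A0 (log2 fold change 0.70 with SE 0.38, adjusted p = 0.24). Without A10 replicate 3 it was called in both (log2 fold change 1.02, adjusted p = 0.00774 and log2 fold change 0.70, adjusted p = 0.0352).

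Fbp1, which encodes fructose-1,6-bisphosphatase, was at 699 ± 31.6 CPM in BA10 and 787 ± 79.1 in A0 (mean ± SD, n = 3 each, log2 fold change -0.17 with SE 0.12). Pcx, which encodes pyruvate carboxylase, was at 359.9 ± 37.6 CPM in BA10 and 352 ± 22.4 in A0 (log2 fold change 0.03 with SE 0.13). By RPKM, a count scaled to transcript length and library size so that levels can be compared between genes, Fbp1 was the most abundant of the 33 members (534 RPKM over 12 livers), followed by Pck1 (474), G6pc (401) and Ldha (315). The high levels in BA10 were thus not shared by all 4 glucose production genes.

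Of the 3 members that bring protein phosphatase 1 to glycogen, only Ppp1r3g was called by edgeR against A0, and its fold change against A0 and BA0 was the largest of all 33. Ppp1r3g encodes a glycogen-targeting subunit that is induced in fasted mouse liver (gene 76487, chromosome 13, 35958824 to 35970388). It was at 12.8, 7.14 and 3.09 CPM in BA10, at 0.291, 0.29 and 2.01 in BA0, at 0.29, 0.235 and 0.462 in A10 and at 0.0669, 0.377 and 0.726 in A0. These levels rest on 210, 138 and 56 counts in BA10, 5, 5 and 35 in BA0, 5, 4 and 8 in A10 and 1, 6 and 12 in A0, so the size of the fold change is poorly known. Outside BA10 it reached 10 counts in 2 of 9 libraries, so it passed the filter only through the BA10 livers and had to differ to be tested at all, so its calls are given as a description. The 3 BA10 livers were above the other 9, and the lowest of them lay nearer to BA0 replicate 3 than to BA10 replicate 1. Compared to A0 the log2 fold change was 4.25 with SE 0.83 (adjusted p = 0.0144), compared to BA0 3.14 with SE 0.75 (adjusted p = 0.554, and 0.0126 by DESeq2) and compared to A10 4.51 with SE 0.84 (adjusted p = 0.0844).

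Ppp1r3b, the main liver subunit and high in fed liver, was at 282, 226 and 283 CPM in BA10, at 222, 265 and 169 in BA0, at 274, 296 and 154 in A10 and at 202, 199 and 169 in A0. All BA10 livers were above all A0 livers, without passing the test (log2 fold change 0.47 with SE 0.23, adjusted p = 0.188), and the lowest level was in A10 replicate 3. Ppp1r3c, another such subunit, was at 125 ± 12.5 CPM in BA10 and 154 ± 36.7 in A0 (log2 fold change -0.29 with SE 0.20).

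None of the 5 glycogen enzymes was called in any of the 6 comparisons by edgeR. Gys2, the liver glycogen synthase, was at 84.6, 89.9 and 92.6 CPM in BA10, at 87.2, 81 and 84.1 in BA0, at 90.4, 96.1 and 80 in A10 and at 114, 113 and 93.7 in A0. It lay below all A0 livers in every BA10 and BA0 liver (BA10 against A0, log2 fold change -0.26 with SE 0.10, adjusted p = 0.103; BA0 against A0, log2 fold change -0.34 with SE 0.10, adjusted p = 0.057, and 0.0149 by DESeq2). Ugp2, which makes the UDP-glucose that glycogen synthase uses, was at 265 ± 17.6 CPM in BA10, 282 ± 61.4 in BA0, 306 ± 37.8 in A10 and 212 ± 33.2 in A0. In A10 it had the smallest p of the 5 against A0 (log2 fold change 0.53 with SE 0.16, adjusted p = 0.0821, and called by DESeq2). Gaa, the lysosomal enzyme that breaks down glycogen, was at 53.8 ± 4.9 CPM in BA10 and 70.5 ± 9.69 in A0 (log2 fold change -0.39 with SE 0.12, adjusted p = 0.0637). Pygl, the liver glycogen phosphorylase, and Gbe1, the branching enzyme, had log2 fold changes of 0.05 with SE 0.17 and -0.08 with SE 0.27 in BA10 against A0. Pygl was at 291 CPM in A10 replicate 3 and at 396 to 505 in the other 11 livers.

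**Figure D2:**
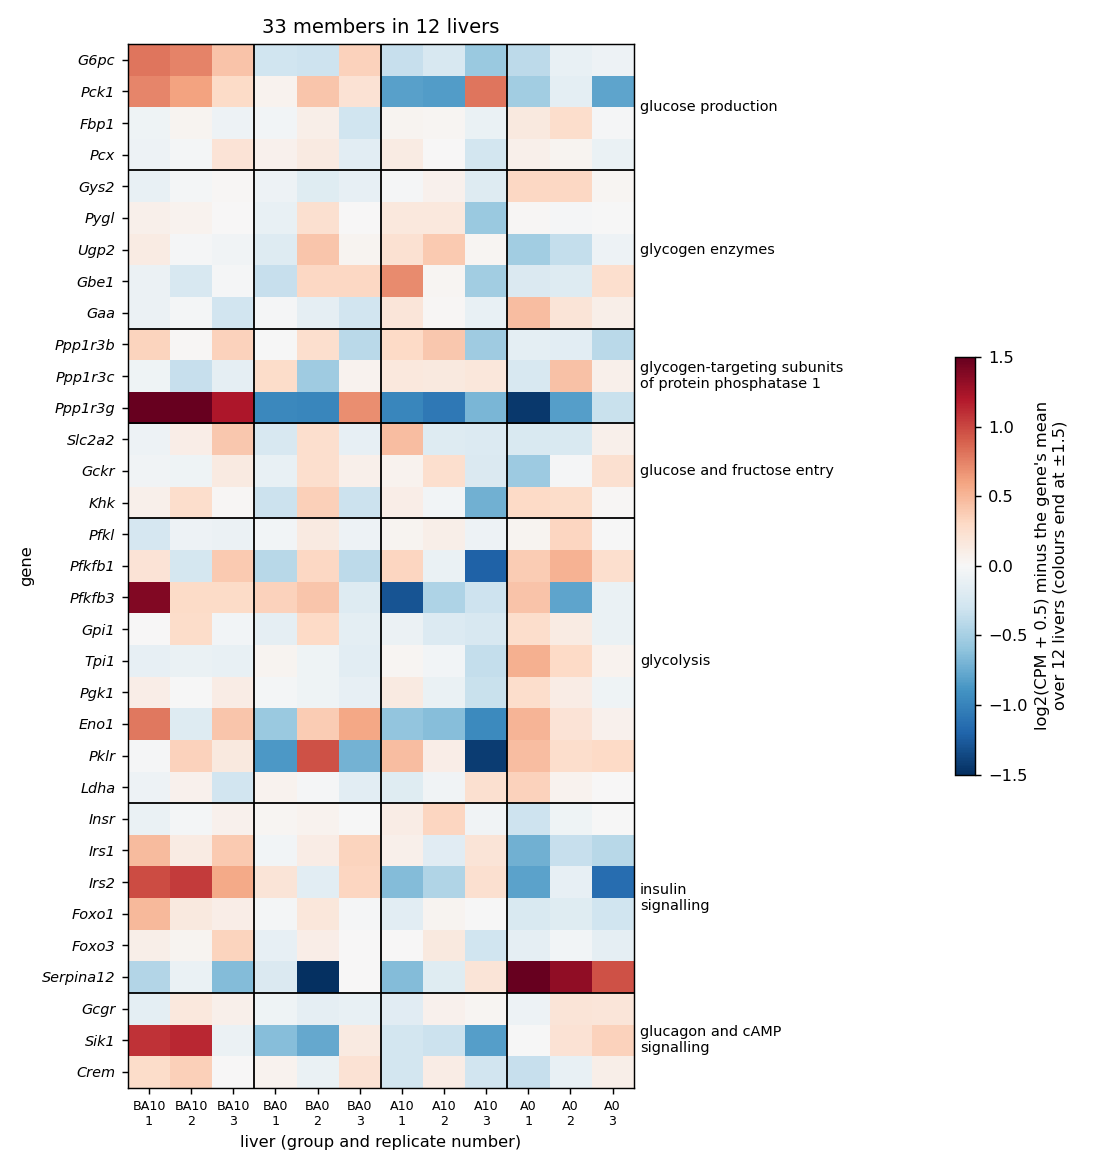
Each row is 1 of the 33 members grouped by role, each column 1 liver, and the colour is log2(CPM + 0.5) minus the mean of that gene over the 12 livers, with red for higher and blue for lower (the scale ends at ±1.5). G6pc, Irs2, Ppp1r3g and Sik1 are red in BA10 replicates 1 and 2, Serpina12 is red in the 3 A0 livers, and many glycolysis and glycogen genes are blue in A10 replicate 3.

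The genes that let sugars into metabolism were not called in any comparison. Slc2a2, the glucose transporter GLUT2, was at 217 ± 37.9 CPM in BA10, 192 ± 35.3 in BA0, 203 ± 57.5 in A10 and 179 ± 22.5 in A0. Gckr, a regulatory protein of hepatic glucose phosphorylation, had a log2 fold change of -0.06 with SE 0.18 in BA10 against BA0 and 0.09 with SE 0.18 against A0. Khk, the fructose-phosphorylating ketohexokinase and a gene of the fed liver, was at 251, 287 and 241 CPM in BA10, at 189.7, 305 and 190.2 in BA0, at 255, 231 and 145 in A10 and at 293, 289.5 and 242 in A0. BA10 and A0 overlapped (log2 fold change -0.08 with SE 0.22), and A10 replicate 3 was again lowest.

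The 9 glycolysis members were not called by edgeR in any comparison either. Against A0 their median log2 fold change was -0.18 in BA10 (7 of 9 negative), -0.18 in BA0 (8 of 9) and -0.42 in A10 (9 of 9), where a share of 50.7%, 52.7% and 53.3% of all genes was positive. These medians with the length and GC trends removed are not reported here. For 33 other glycolysis and glucose production genes, removing the trends moved the median from -0.10 to 0.03 in BA10. It moved from -0.06 to 0.05 in BA0 and from -0.03 to 0.08 in A10. Tpi1, triosephosphate isomerase, was below all A0 livers in every liver of the 3 other groups, at 260.1 ± 2.14 CPM in BA10, 270.4 ± 19.6 in BA0, 259.8 ± 35.4 in A10 and 348 ± 58.6 in A0 (BA10 against A0, log2 fold change -0.42 with SE 0.13, adjusted p = 0.0652), and its highest level was in A0 replicate 1. Pklr, the liver pyruvate kinase and a marker of the fed liver, was at 137, 177 and 153 CPM in BA10, at 76.3, 269.6 and 84.7 in BA0, at 191, 149 and 51.3 in A10 and at 191, 166 and 170.5 in A0. It varied more within BA0 and A10 than between group means, and its log2 fold change was 0.12 with SE 0.49 in BA10 against BA0 and -0.18 with SE 0.49 against A0.

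Pfkfb3, an isoform of the enzyme that sets fructose-2,6-bisphosphate and speeds glycolysis, was at 36.9, 17 and 17 CPM in BA10, at 17.7, 18.6 and 12 in BA0, at 5.33, 9.93 and 11.1 in A10 and at 18.8, 7.79 and 12.8 in A0. BA10 lay above A10 without overlap (log2 fold change 1.42 with SE 0.39, adjusted p = 0.237, and 0.0211 by DESeq2), and BA10 replicate 1 was above all other livers. Pfkfb1, the main liver isoform, had log2 fold changes of 0.26 with SE 0.34 in BA10 against BA0 and -0.26 with SE 0.34 against A0. Eno1, enolase 1, was at 12 ± 4.08 CPM in BA10, 10.6 ± 4.08 in BA0, 5.31 ± 0.758 in A10 and 11.1 ± 1.89 in A0, so that A10 was lowest (log2 fold change -1.06 with SE 0.31, adjusted p = 0.0768, for A10 against A0). Pfkl, Gpi1, Pgk1 and Ldha, the liver phosphofructokinase, phosphoglucose isomerase, phosphoglycerate kinase and lactate dehydrogenase A, had log2 fold changes between -0.27 and -0.02 in BA10 against A0 and between -0.15 and 0.14 against BA0.

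Insulin signalling held 4 of the 6 members called in BA10 against A0. Irs2 encodes the insulin receptor substrate that is high in fasted liver (gene 384783, chromosome 8, 10984681 to 11008929). It was at 78.3, 82.3 and 58.8 CPM in BA10, at 45.2, 35.3 and 49.8 in BA0, at 25, 28.7 and 46.8 in A10 and at 22.5, 36.3 and 17.7 in A0, with every BA10 liver above the other 9. Compared to A0 it rose 2.87-fold (log2 fold change 1.52 with SE 0.29, adjusted p = 0.0125), compared to BA0 the log2 fold change was 0.75 with SE 0.28 (adjusted p = 0.99), and compared to A10 it was 1.12 with SE 0.28 (adjusted p = 0.188, and 0.00919 by DESeq2).

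Irs1, the other main substrate of the insulin receptor (gene 16367, chromosome 1, 82233105 to 82291439), was at 35, 27.3 and 33.2 CPM in BA10, at 24.4, 27.2 and 31.8 in BA0, at 26.5, 22.3 and 28.8 in A10 and at 15, 19.6 and 18.8 in A0. All 9 livers of the other groups were above the 3 A0 livers. Irs1 rose in BA10 (log2 fold change 0.84 with SE 0.15, adjusted p = 0.00998) and in BA0 (log2 fold change 0.64 with SE 0.15, adjusted p = 0.0367) compared to A0, was not called in A10 (log2 fold change 0.54 with SE 0.15, adjusted p = 0.0646), and kept its BA10 call when any 1 of the 12 libraries was left out. Foxo1 encodes the forkhead factor that insulin keeps out of the nucleus (gene 56458, chromosome 3, 52268337 to 52350109). It was at 44.5, 35 and 33.8 CPM in BA10, at 30.9, 35.7 and 31.3 in BA0, at 28.3, 32.6 and 31.4 in A10 and at 26.8, 27.7 and 25.5 in A0, also without overlap between A0 and the other groups. Its rise in BA10 (log2 fold change 0.50 with SE 0.11, adjusted p = 0.0249) was not called once the length and GC trends were removed (log2 fold change 0.29, adjusted p = 0.179) or in a fit of BA10 and A0 alone (adjusted p = 0.0589). With the trends removed, Irs1, Irs2, G6pc, Ppp1r3g and Serpina12 were still called.

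The longest transcripts of Irs1, Foxo1 and Irs2 hold 9144, 8665 and 6323 bases, and replicates 1 and 2 of A0 carried the length trend named above. With the trends removed no member was called in BA0 against A0 (Irs1 log2 fold change 0.47, adjusted p = 0.107). Markers of sinusoidal endothelium were also higher than in A0. By edgeR 6 of 6 (Stab1, Stab2, Kdr, Pecam1, Clec4g and Lyve1) were called higher in BA10 (10.1% of all genes called), 4 of 6 in BA0 (6.38%) and 4 of 6 in A10 (3.64%). All 6 had positive log2 fold changes in each. With the trends removed 6, 2 (Clec4g and Kdr) and 1 (Kdr) were called. Their summed level was 197, 203 and 251 CPM in BA10, 155, 177 and 197 in BA0, 162, 145 and 196 in A10 and 103, 106 and 101 in A0, and none of the 6 was at 0 in any liver. Of 6 stellate cell markers, 2 were called higher in BA10 (Lrat and Rgs5), 3 in BA0 (Lrat, Dcn and Rgs5) and 1 in A10 (Lrat) against A0, beside the same shares of all genes. Their summed level was 277, 287 and 332 CPM in BA10, 270.5, 305 and 403 in BA0, 308, 253 and 307 in A10 and 176, 193 and 249 in A0. Of 5 red cell markers, Hba-a1 and Hba-a2 were called lower in BA10 than in A0. The part of these cell types in the levels of Irs1, Irs2 and Foxo1 was not tested. In tissue RNA more cells of a type and more RNA per cell cannot be told apart.

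Insr, the insulin receptor, was at 103 ± 5.91 CPM in BA10, 106 ± 2 in BA0, 114 ± 14.9 in A10 and 95.6 ± 10.5 in A0 (BA10 against A0, log2 fold change 0.10 with SE 0.11). Foxo3, another forkhead factor, was at 36.5 ± 4.12 CPM in BA10 and 30.3 ± 1.13 in A0 (log2 fold change 0.27 with SE 0.12). Serpina12, which encodes the secreted insulin-sensitising protein vaspin (gene 68054, chromosome 12, 104028769 to 104044443), was the member that fell. It was at 25.6, 32.4 and 22.1 CPM in BA10, at 29.9, 9.97 and 35.1 in BA0, at 22, 30.6 and 40 in A10 and at 99.6, 88.7 and 68 in A0, with all 9 livers of the other groups below the 3 A0 livers. It fell in BA10 (log2 fold change -1.68 with SE 0.37, adjusted p = 0.0232) and in BA0 (log2 fold change -1.77 with SE 0.38, adjusted p = 0.0312), and in A10 it just missed the threshold (log2 fold change -1.47 with SE 0.37, adjusted p = 0.0529, and 0.0016 by DESeq2). The level was thus below that of the same 3 A0 livers with busulfan, with AOS and with both. BA10 and BA0 overlapped (log2 fold change 0.10 with SE 0.37). With the length and GC trends removed, Serpina12 was called in BA10 but not in BA0 or A10. The same held in fits of the compared groups only.

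**Figure D3:**
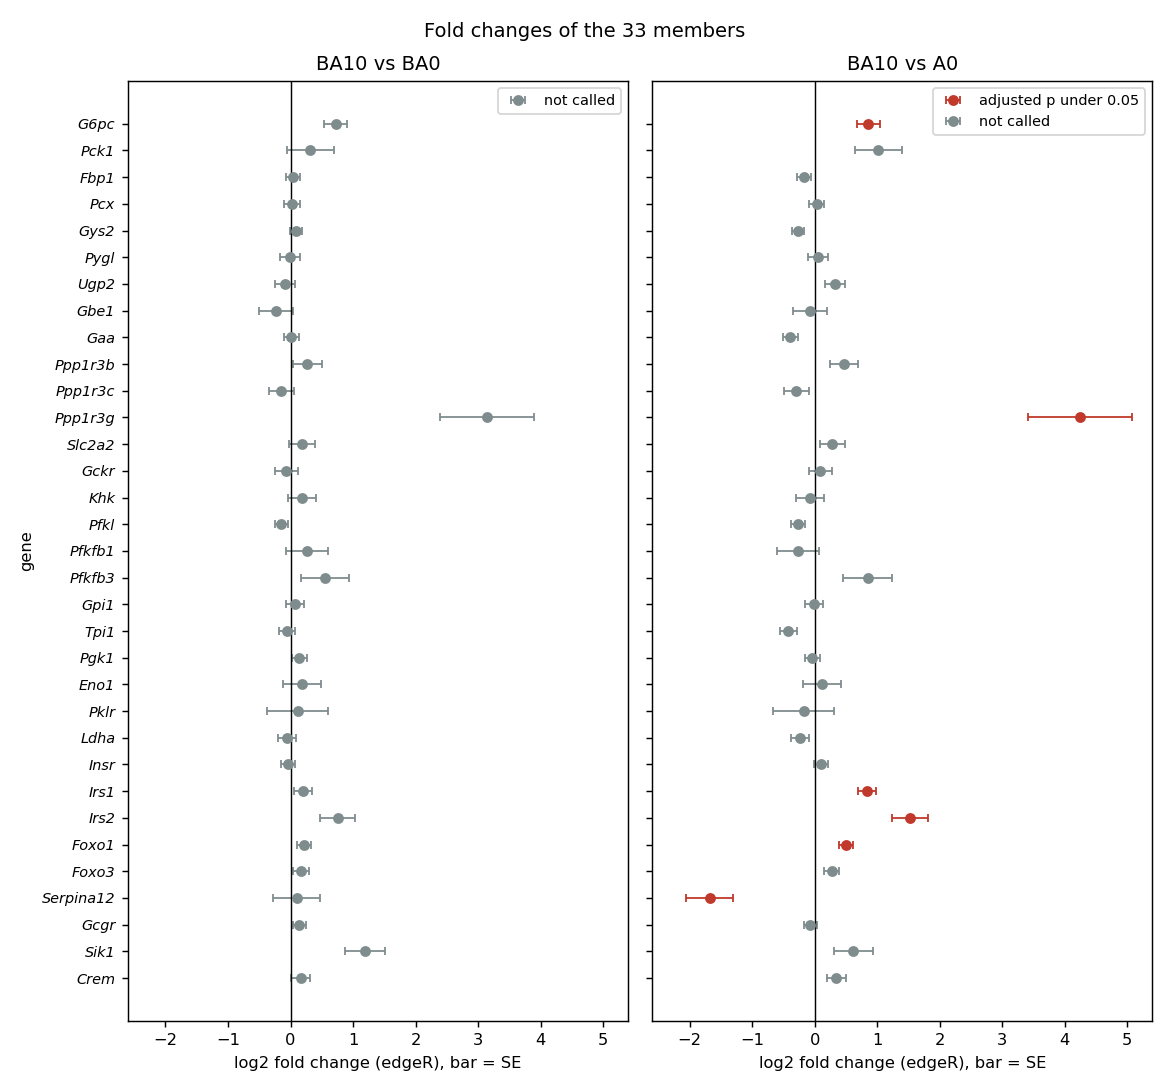
Log2 fold change (x axis, points) and its standard error (bars) from edgeR for each member (y axis, grouped by role as in the plot of all members by liver), for BA10 against BA0 (left) and BA10 against A0 (right), with red for an adjusted p under 0.05 and grey for not called. Ppp1r3g lies farthest to the right in both, no member is red against BA0, and 6 are red against A0.

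EdgeR called none of the 3 glucagon and cAMP members in any comparison, DESeq2 called Sik1 in BA10 against BA0, in BA10 against A10 and for the difference of the AOS effects, and the log2 fold change of Sik1 with AOS was positive with busulfan and negative without it. Sik1 encodes a salt-inducible kinase that cAMP switches on and that restrains CREB (gene 17691, chromosome 17, 31844248 to 31855804). It was at 56.2, 57.8 and 24.5 CPM in BA10, at 16.6, 15.2 and 28.7 in BA0, at 21.5, 20.8 and 14.5 in A10 and at 26.1, 30.5 and 33.5 in A0. Replicates 1 and 2 of BA10 were above all other livers, while replicate 3 lay within the range of BA0, and all A10 livers were below all A0 livers. The log2 fold change was 1.19 with SE 0.32 in BA10 against BA0 (adjusted p = 0.629, and 0.049 by DESeq2), -0.67 with SE 0.32 in A10 against A0 (adjusted p = 0.22) and 0.62 with SE 0.32 in BA10 against A0 (adjusted p = 0.211). Gcgr, the glucagon receptor, was at 150.2 ± 15.8 CPM in BA10, 136 ± 3.43 in BA0, 145 ± 12.3 in A10 and 158 ± 16.4 in A0. Crem, a CREB-related factor with cAMP-induced repressor forms (gene 12916, chromosome 18, 3266354 to 3337773), was at 28 ± 3.51 CPM in BA10, 25 ± 2.78 in BA0, 21.7 ± 3.66 in A10 and 22.1 ± 3.32 in A0 (BA10 against A0, log2 fold change 0.34 with SE 0.15, adjusted p = 0.158).

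Immediate-early genes, which respond within minutes to cAMP, growth factors or handling, were also read in BA10 against BA0. In BA10 against BA0, 5 of 11 tested were higher and 0 lower (Ier2, Egr1, Junb, Nr4a1 and Fos), with a median log2 fold change of 1.81 over the 11. Of all genes, edgeR called 0.0543% there. Compared to A0, 7 of the 11 were called higher in BA10 and 0 lower (median log2 fold change 1.81, 10.1% of all genes called). In BA0 against A0, 1 was called higher and 2 lower (median log2 fold change -0.49, 6.38% of all genes called). The transcription factor gene Egr1 was at 251, 126 and 178 CPM in BA10, at 1.11, 2.2 and 2.75 in BA0, at 2.84, 2.41 and 9.24 in A10 and at 6.69, 4.84 and 3.15 in A0 (BA10 against BA0, log2 fold change 6.51 with SE 0.56, adjusted p = 0.000647). Within BA10 the mean of the immediate-early list was lowest in replicate 3 (1.14), as were G6pc, Irs2, Ppp1r3g and Sik1. Within BA0 these members were highest in replicate 3, where the list mean was -0.58, below replicate 2 (-0.44). The part of the immediate-early genes in the levels of the members was not tested.

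Whether the livers looked fasted or fed was read from 4 lists, 6 members and 14 other genes known to be high in fasted liver, and 3 members and 15 other genes known to be high in fed liver. These lists were also chosen with earlier results of these data known. The answer differed between lists and between mice. For 5 fasted members (G6pc, Pck1, Irs2, Sik1 and Crem, with Ppp1r3g left out after the data were seen) the mean of log2(CPM + 0.5) relative to the 12 livers was 0.78, 0.78 and 0.24 in BA10, -0.13, -0.18 and 0.25 in BA0, -0.47, -0.35 and -0.13 in A10 and -0.41, -0.05 and -0.32 in A0. Replicates 1 and 2 of BA10 were above the other 10 livers, and BA10 replicate 3 lay just below BA0 replicate 3. With Ppp1r3g the means were 1.17, 1.03 and 0.40 in BA10, and the nearest other liver was BA0 replicate 3 at 0.32. Against A0, 2 of these 5 were called higher in BA10 (G6pc and Irs2) and 0 in BA0 or A10, with median log2 fold changes of 0.86, 0.18 and -0.03. Of all genes, edgeR called 10.1% in BA10, 6.38% in BA0 and 3.64% in A10. G6pc and Irs2 were also called with the trends removed, and neither was called without A0 replicates 1 and 2.

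Of the 14 other fasted genes, 4 were higher in BA10 than in A0 and 0 were lower (median log2 fold change 0.69, 11 of 14 positive). Of all genes, 10.1% were called and 50.7% were positive there, and 6.38% and 3.64% were called in BA0 and A10 against A0. In BA0 and A10 the median of the 14 against A0 was 0.49 and 0.48, with 11 of 14 positive and 0 called in each, and in BA10 it was 0.08 against BA0 and 0.02 against A10. By liver the mean of the list was 0.66, 0.32 and 0.35 in BA10, -0.34, 0.66 and -0.27 in BA0, -0.16, -0.48 and 0.61 in A10 and -0.59, -0.52 and -0.23 in A0, so BA0 replicate 2 matched the highest BA10 liver and A10 replicate 3 lay within the BA10 range. Without A0 replicates 1 and 2 the median in BA10 against A0 was 0.22 and 0 of 14 were called. Igfbp1, which encodes a binding protein that insulin represses, was at 338, 354 and 231 CPM in BA10, at 41.5, 63.1 and 86.9 in BA0, at 22.2, 19.9 and 55.5 in A10 and at 15.1, 31.5 and 25.9 in A0. Every BA10 liver was above the other 9 (BA10 against A0, log2 fold change 3.67 with SE 0.44, adjusted p = 0.0025; BA10 against A10, log2 fold change 3.24 with SE 0.43, adjusted p = 0.0203; BA10 against BA0, log2 fold change 2.27 with SE 0.41, adjusted p = 0.141, and 0.00112 by DESeq2). Tat, tyrosine aminotransferase, was at 2156 ± 224 CPM in BA10 and 971 ± 175 in A0 (log2 fold change 1.15 with SE 0.24, adjusted p = 0.017), and Lpin1, a phosphatidate phosphatase and coactivator, at 129 ± 9.47 CPM in BA10 and 28.6 ± 5.73 in A0 (log2 fold change 2.18 with SE 0.53, adjusted p = 0.0312). Angptl4, an inhibitor of lipoprotein lipase, rose less (log2 fold change 0.85 with SE 0.23, adjusted p = 0.0411).

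Genes of this list that serve fat burning, Cpt1a and Cyp4a14, did not pass the test. Cpt1a, which admits fatty acids to mitochondria, was at 184 ± 33.2 CPM in BA10 and 165 ± 23 in A0 (log2 fold change 0.16 with SE 0.14). Cyp4a14, a sensitive PPARα target, was at 8.99, 2.38 and 2.26 CPM in BA10, at 0.349, 21.2 and 0.631 in BA0, at 1.33, 0.235 and 55.1 in A10 and at 0.267, 0.251 and 3.94 in A0, with its 2 highest levels in A10 replicate 3 and BA0 replicate 2.

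Of the 18 genes of the fed liver on the 2 lists, 1 was lower in BA10 than in A0 and 0 were higher, where 10.1% of all genes were called. The mean of the 3 fed members (Pklr, Khk and Ppp1r3b) was 0.13, 0.21 and 0.17 in BA10, -0.40, 0.52 and -0.48 in BA0, 0.29, 0.16 and -0.89 in A10 and 0.20, 0.13 and -0.03 in A0. Their median log2 fold change against A0 was -0.08 in BA10, -0.27 in BA0 and -0.38 in A10. With the trends removed it was 0.20, 0.05 and -0.07. Of the 15 others, 9 were positive by log2 fold change in BA10 against A0 and 1 was called, Angptl8, a hormone gene that feeding induces (log2 fold change -1.62 with SE 0.41, adjusted p = 0.0344). Angptl8 was at 17.2, 12.5 and 9.86 CPM in BA10, at 9.32, 16.6 and 6.94 in BA0, at 12.9, 34.6 and 11.8 in A10 and at 41.3, 37.6 and 42.2 in A0, and it also fell in BA0 (log2 fold change -1.88 with SE 0.42, adjusted p = 0.0339), but with the trends removed neither was called (adjusted p = 0.0929 and 0.0953). Fasn, fatty acid synthase, was at 556, 385 and 683 CPM in BA10, at 380.3, 773 and 414 in BA0, at 714, 254 and 149.5 in A10 and at 587, 315 and 371 in A0 (BA10 against A0, log2 fold change 0.35 with SE 0.50). BA10 livers thus carried high levels of G6pc, Irs2 and Igfbp1 beside levels of Fasn within or above the range of the A0 livers in all 3 mice, and Pklr below that range in 2 of 3.

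**Figure D4:**
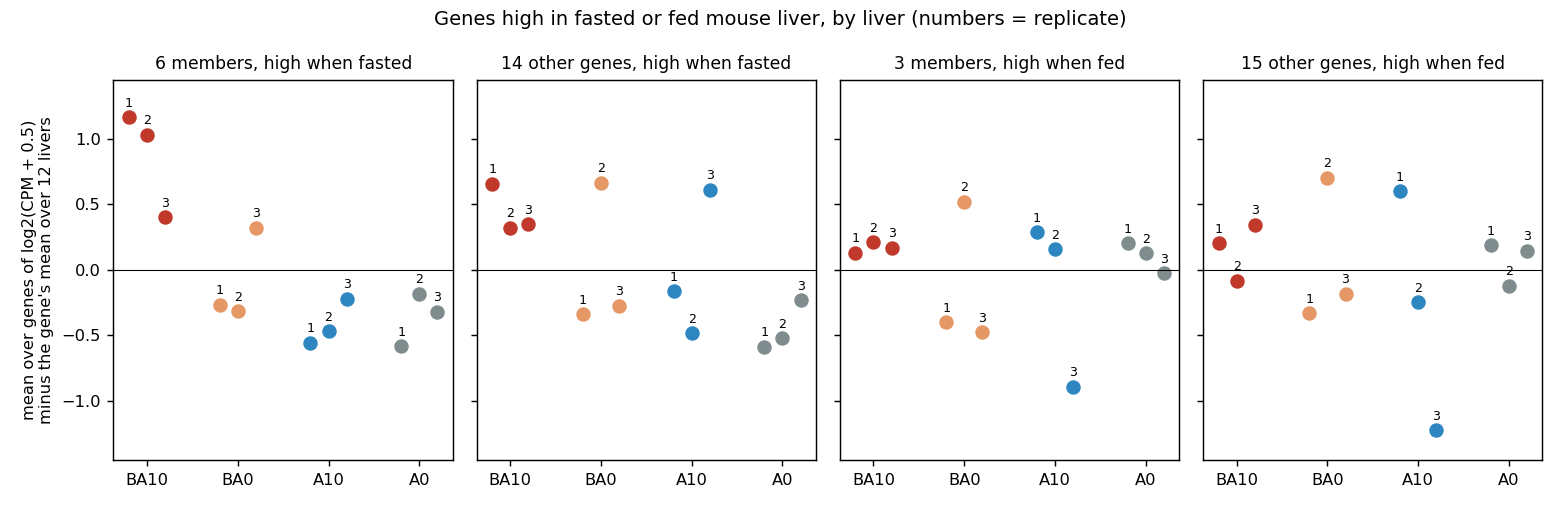
Mean over the genes of a list of log2(CPM + 0.5) minus the gene's mean over 12 livers (y axis) in each liver (points, numbered by replicate) of BA10, BA0, A10 and A0 (x axis), for 4 lists of genes known to be high in fasted or in fed liver. Replicates 1 and 2 of BA10 are highest for the 6 fasted members, where the place of BA10 replicate 3 above BA0 replicate 3 rests on Ppp1r3g, and A10 replicate 3 is lowest for both fed lists.

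A10 replicate 3 had low levels of the fed lists and mixed levels of the fasted ones. It had the lowest level of the 12 livers in 15 of the 33 members (45.5%), where it was lowest in 11.5% of all genes tested, and these included Pklr, Khk, Ppp1r3b, Pygl, Pfkfb1, Gbe1 and Foxo3. It also had the highest Pck1 and Cyp4a14 and the lowest Fasn (149.5 CPM) of the 12. Of the fasted members, G6pc (548 CPM) and Sik1 (14.5 CPM) were lowest there. BA0 replicate 2, which held the pancreatic transcripts, had the highest Pklr, Khk, Pygl, Ugp2 and Gpi1 of the 12 livers, and high Cyp4a14 as well. Whether these 2 mice had eaten at other times than the rest, the sources used here do not state.

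With busulfan alone few members changed. In BA0 against A0, edgeR called 2 of 33 members (6.06%), Irs1 higher and Serpina12 lower, where it called 6.38% of all genes. In 8 members BA0 and A0 did not overlap (Pck1, Insr, Irs1 and Foxo1 higher and Gys2, Gaa, Tpi1 and Serpina12 lower in BA0), where 34.2% of all genes did not overlap. Irs1 and Serpina12 both lost the call without A0 replicate 1, A0 replicate 2, BA0 replicate 2 or BA0 replicate 3, with the trends removed (adjusted p = 0.107 and 0.0526), and in a fit of BA0 and A0 alone (0.0716 and 0.0719). Irs1 also lost it without BA10 replicate 1 or 3 and Serpina12 without BA0 replicate 1.

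With AOS alone edgeR called 0 members in A10 against A0 (3.64% of all genes), and 7 had an unadjusted p under 0.05 (Ugp2, Insr and Irs1 higher, Gys2, Tpi1, Eno1 and Serpina12 lower, against 24.9% of all genes). DESeq2 called 5 (Ugp2, Irs1, Tpi1, Eno1 and Serpina12, against 10.2%) and limma-voom 0 (2.54%). In 7 members A10 and A0 did not overlap, where 26% of all genes did not. In BA10 against A10, which differ in busulfan, edgeR called 0 members (0.124%). There, 8 members had an unadjusted p under 0.05, all higher in BA10 (G6pc, Ppp1r3g, Pfkfb3, Eno1, Irs2, Foxo1, Sik1 and Crem, against 8.72%), DESeq2 called 6 (all of these but Foxo1 and Crem, against 1.2%) and limma-voom 0 (0.14%). Without Ppp1r3g, which passed the filter only through BA10, 7 of 32 had an unadjusted p under 0.05. Of the DESeq2 calls G6pc, Pfkfb3, Eno1, Irs2 and Sik1 then remain.

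The effect of AOS with busulfan minus its effect without busulfan was called by edgeR in 0 members (0.0543% of all genes). At an unadjusted p under 0.05 there were 7 (15.5%), with G6pc, Gys2, Ppp1r3g, Eno1, Serpina12 and Sik1 positive and Ugp2 negative, DESeq2 called 3 (G6pc, Serpina12 and Sik1, against 2.08%) and limma-voom 0 (0.062%). Without Ppp1r3g, 6 of 32 members had an unadjusted p under 0.05. The smallest p was that of Sik1 (log2 difference 1.86 with SE 0.45, adjusted p = 0.172), followed by G6pc (log2 difference 0.91 with SE 0.26, adjusted p = 0.194). The comparisons against A0 share the A0 livers, so their calls are not independent of each other.

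Other genes of the same pathways were also read in BA10 against A0, where edgeR called 10.1% of all genes tested. Of 28 other insulin signalling genes tested, 5 were higher and 2 lower, with a median log2 fold change of 0.05. Trib1, a pseudokinase gene, rose (log2 fold change 1.03 with SE 0.22, adjusted p = 0.0211), as did Pdpk1, the kinase that activates AKT (log2 fold change 0.46, adjusted p = 0.0119), Pik3ca, the catalytic subunit of PI3 kinase (log2 fold change 0.46, adjusted p = 0.0449) and Rps6kb1, the S6 kinase (log2 fold change 0.44, adjusted p = 0.0322). Grb10, an adaptor that dampens insulin signalling, fell (log2 fold change -1.18, adjusted p = 0.0344), as did Eif4ebp1, a repressor of translation (log2 fold change -0.39, adjusted p = 0.0454). With the trends removed Trib1 and Grb10 alone were called. The adjusted p values are from edgeR.

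Of 20 other glucagon and cAMP genes 19 were tested, and 2 were higher (Creb1, log2 fold change 0.95, adjusted p = 0.0025 and Adcy6, log2 fold change 0.65, adjusted p = 0.0299) and 1 lower (Crtc3, log2 fold change -0.54, adjusted p = 0.0337) in BA10 against A0. Creb1, the gene of CREB itself, was also higher in BA0 (log2 fold change 0.84, adjusted p = 0.0113) and in A10 (log2 fold change 0.76, adjusted p = 0.033), and with the trends removed Creb1 and Adcy6 were called in BA10, and 0 genes of this list in BA0 or A10. Of 22 other glycogen genes 20 were tested, with 3 higher (Gsk3b, Ppp1cb and Stbd1) and 1 lower (Nhlrc1). Gsk3b, the kinase that phosphorylates glycogen synthase, was at 51 ± 1.76 CPM in BA10 and 31.1 ± 0.776 in A0 (log2 fold change 0.71, adjusted p = 0.0106). Of 35 other glycolysis and glucose production genes 33 were tested, with 1 higher (Pfkfb2, log2 fold change 0.92, adjusted p = 0.0094) and 2 lower (Pdk2, log2 fold change -0.60, adjusted p = 0.0235 and Taldo1, log2 fold change -0.30, adjusted p = 0.0483). With the trends removed, Stbd1 alone of the glycogen genes was called, and Pfkfb2 and Pkm of the others, so that Gsk3b, Ppp1cb, Nhlrc1, Pdk2 and Taldo1 lost the call and Pkm gained it. In BA10 against BA0 edgeR called 0 genes of these 4 lists and 0.0543% of all genes. The log2 fold change was positive in 13 of 28, 14 of 19, 11 of 20 and 19 of 33 genes, and in 48.7% of all genes. In BA0 against A0 it called 3 insulin signalling genes (Pik3ca and Pdpk1 higher, Eif4ebp1 lower), 5 glucagon and cAMP genes (Creb1 and Prkar2a higher, Crtc2, Crtc3 and Prkaca lower), 1 glycogen gene (Gsk3a lower) and 4 glycolysis and glucose production genes (Pfkfb2 higher, Pdk2, Pgls and Taldo1 lower). In A10 against A0 it called 3, 2, 1 and 2 genes of the same lists (among them Pik3ca, Pdpk1, Creb1 and Ppp1cb higher, Crtc3, Pgls and Taldo1 lower). Of all genes it called 10.1% in BA10, 6.38% in BA0 and 3.64% in A10 against A0. With the trends removed 0 genes of these 4 lists were called in BA0 or A10.

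The calls of BA10 against A0 depended on few mice. Without A0 replicates 1 and 2 together 0 of the 33 members were called, with log2 fold changes of 0.73 for G6pc, 3.37 for Ppp1r3g, 0.74 for Irs1, 2.03 for Irs2, 0.54 for Foxo1 and -1.37 for Serpina12. When 1 library was left out, G6pc was not called without A0 replicate 1, A0 replicate 2, BA10 replicate 1 or BA10 replicate 2 (adjusted p = 0.0531 to 0.0879), Ppp1r3g and Foxo1 without A0 replicate 1, A0 replicate 2 or BA10 replicate 1 (0.0582 to 0.0672 and 0.0823 to 0.0928), Irs2 without A0 replicate 1 or BA10 replicate 1 (0.0516 and 0.0563), and Serpina12 without A0 replicate 1, A0 replicate 2, BA10 replicate 1 or BA10 replicate 3 (0.0718 to 0.0855). The log2 fold change of G6pc then lay between 0.75 and 0.96, that of Irs2 between 1.31 and 1.84 and that of Ppp1r3g between 3.64 and 5.04. The number of members called was 1 without A0 replicate 1 or BA10 replicate 1, 2 without A0 replicate 2, and 9 without A0 replicate 3 (Gys2, Gaa and Tpi1 added). The 9 include Ppp1r3g, which passed the filter only through BA10. The share of all genes called in these fits is not reported here. Of the other fasted genes, Igfbp1 was called in BA10 against A0 whichever library was left out (log2 fold change 3.41 to 3.89), and against A10 it lost the call without A0 replicate 3, A10 replicate 1, A10 replicate 2, BA10 replicate 1 or BA10 replicate 2 (adjusted p = 0.0507 to 0.115). Tat lost its call without A0 replicate 1 or BA10 replicate 1, and Lpin1 and Angptl4 when any 1 of the A0 or BA10 libraries was left out, Angptl4 also without BA0 replicate 1 or 3. Angptl8 lost its call in BA10 without A0 replicate 1, A0 replicate 2 or any BA10 library, and in BA0 without A0 replicate 1, A0 replicate 2 or any BA0 library.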

How the data were processed

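Per the labels and the study's methods, total liver RNA was extracted with TRIzol, poly(A) mRNA was sequenced, and the authors aligned reads with SOAPaligner to mm10. The deposited table gives for each mouse an estimated count and an RPKM per gene (17871 genes, named by Entrez ID). Between 78.6% and 80.3% of the deposited estimated counts of a library were whole (tolerance 1e-06), and how the others arose is not stated. The 8 columns of group means made by the authors were not used, and no comparison columns were read.

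Counts were rounded, filtered with filterByExpr (minimum count 10, minimum total 15) and fitted in edgeR 4.0.16 (R 4.3.3) with TMM factors, group as the only term and all 12 libraries. The quasi-likelihood test with Benjamini-Hochberg adjustment over 12896 genes called a gene at an adjusted p under 0.05. Totals of 16439485 to 18174565 counts give a minimum of 0.593 CPM for the filter. Each library is 1 mouse, and p-values measure the spread between these mice. CPM used TMM-scaled totals, and RPKM served for levels between genes. Transcript lengths and GC were known for 12219 tested genes. Alternatives were DESeq2 1.42.0, limma-voom (limma 3.58.1), upper-quartile factors, no filter, spline trends over length and GC removed, limma on log2(RPKM + 0.1) and log2(RPKM + 1), the compared groups only, a replicate block, and each library left out. The scripts were tested on simulated data. The text names all 33 members, of the other lists the genes called (the 6 with the smallest p where more were called, and Eif4ebp1 beyond them, up to 3 with the smallest p where 0 were), genes of the fasted and fed lists, and Egr1, Fos, Per1 and Alb. Values of some listed genes are not reported here. The members and lists were chosen with earlier results of these data known.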

Additional observations from a re-analysis of the deposited data

Results flagged for a closer look

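In 6 members all 3 BA10 livers lay on one side of the BA0 mean while all 3 A10 livers lay on the opposite side of the A0 mean, and the difference between the 2 effects of AOS was tested as an interaction in edgeR. The share of all genes with this pattern was not counted. Since the 6 were picked for opposed effects, the p values of that difference are given as a description. G6pc had a log2 difference of 0.91 (SE 0.26, adjusted p = 0.194), with a log2 fold change of 0.72 in BA10 against BA0 and -0.19 in A10 against A0. Sik1 had a log2 difference of 1.86 (SE 0.45, adjusted p = 0.172), with 1.19 with busulfan and -0.67 without. The log2 difference was 1.13 for Pfkfb3 (adjusted p = 0.343), 0.57 for Khk (adjusted p = 0.399), 0.35 for Gys2 (adjusted p = 0.272) and -0.19 for Ppp1r3c (adjusted p = 0.767). None of the 6 passed the adjusted threshold by edgeR, and G6pc and Sik1 did by DESeq2 (adjusted p = 0.024 and 0.0055). In Sik1 all A10 livers were also below every A0 liver, in G6pc all BA10 livers were above every BA0 liver, and in the other 4 the livers overlapped in both comparisons.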

How the results depend on the processing

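Over all alternatives, 345 refits of the 15 named fold changes past the threshold gave 255 that stayed past it, 90 that did not and 0 reversals of sign. For 17 others, 389 refits gave 33 that passed it with the same sign and 0 that passed it with the opposite sign. Another 10 moved by 1 SE or more without passing it. Changes of sign among refits of these 17 that did not pass were not counted. In BA10 against A0 (6 members called) the count was 1 to 9 when 1 library was left out and 0 without A0 replicates 1 and 2, a setting chosen after the data were seen. In BA0 against A0 (2 called) it was 5 by DESeq2, 4 with upper-quartile factors, 0 with the length and GC trends removed, 0 with the compared groups only, 0 without A0 replicates 1 and 2 and 0 to 5 when 1 library was left out. The single libraries that moved it were A0 replicate 3 (5 without it), A10 replicate 3 (4), BA0 replicate 1, BA10 replicate 1 and BA10 replicate 3 (1 each) and A0 replicates 1 and 2 and BA0 replicates 2 and 3 (0 each). Over all genes, DESeq2 called 1608 in BA0 against A0, beside 823 in the main fit. There were 1094 with upper-quartile factors, 99 with the trends removed and 96 with the compared groups only. The numbers of all genes called with 1 library left out are not reported here. In A10 against A0 (0 called) the count of members was 5 by DESeq2 (10.2% of all genes) and 1 with upper-quartile factors (477 of all genes). It was 0 to 4 when 1 library was left out (4 without A0 replicate 3). In BA10 against BA0 (0 called) it was 3 by DESeq2 (0.287% of all genes). In BA10 against A10 (0 called) it was 6 by DESeq2 (1.2% of all genes) and 0 to 2 when 1 library was left out (2 without A10 replicate 3 or BA0 replicate 3). For the difference of the AOS effects (0 called) it was 3 by DESeq2 (2.08% of all genes). The cause of these shifts was not tested. Ppp1r3g, which passed the filter only through BA10, is in the DESeq2 counts of BA10 against BA0 and against A10. It is also in the 6 members called in BA10 against A0. With 1 library left out it stays in that count, except without A0 replicate 1, A0 replicate 2 or BA10 replicate 1. In BA10 against A10 it is in the count without BA0 replicate 3. These counts are given as a description.

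With the replicate number as a block, 3 members were called in BA0 against A0, 8 in BA10 against A0 and 0 in the other 4 comparisons. Over all genes the block fit called 881 in BA0 and 1235 in BA10 against A0, beside 823 and 1307 in the main fit. With the block and the trends removed there were 0 members in BA0 against A0 and 4 in BA10 against A0, beside 98 and 537 of all genes. The 8 and the 4 in BA10 include Ppp1r3g, which passed the filter only through BA10. Same-numbered mice of different groups did not deviate together (18 correlations of -0.074 to 0.142, 3 of them over 0.1), so the numbers were not taken as pairs. Limma on log2(RPKM + 0.1) put the median of all genes at 0.18 in BA10, 0.18 in BA0 and 0.17 in A10 against A0 (0.01, 0.03 and 0.03 by edgeR), and 93.6%, 95.2% and 92.4% of its calls were higher, so its fold changes are relative to those medians. It called 7 (with Ppp1r3g), 4 and 2 members there, beside 1882, 1570 and 1018 of all genes. With 3 mice per group, Pck1, Sik1 and Pfkfb3 varied widely within groups, and the low counts of Ppp1r3g leave its fold change poorly known.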

Other observations

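Core clock genes, which set the daily rhythm of liver metabolism, were read in the same fit, and 15 of 16 passed the filter on low counts. Per1, a light- and cAMP-responsive gene of the clock, was at 27.8, 23.1 and 22.8 CPM in BA10, at 9.78, 22.8 and 11.8 in BA0, at 5.74, 11 and 7.74 in A10 and at 6.28, 5.03 and 5.99 in A0. It rose in BA10 (log2 fold change 2.09 with SE 0.31, adjusted p = 0.00543) and in BA0 (log2 fold change 1.36 with SE 0.31, adjusted p = 0.0352) compared to A0 by edgeR. Per2, its paralogue, rose in BA10 (log2 fold change 1.30 with SE 0.26, adjusted p = 0.0151) and had a log2 fold change of 0.76 in BA0, and Clock, which encodes the activating partner of BMAL1, rose in BA10 (log2 fold change 0.79 with SE 0.15, adjusted p = 0.0136), in BA0 (log2 fold change 0.66 with SE 0.15, adjusted p = 0.0367) and in A10 (log2 fold change 0.68 with SE 0.15, adjusted p = 0.0445). Of the clock genes 0 were called in BA10 against BA0 by edgeR, and 1 had an unadjusted p under 0.05 there (4.44% of all genes). In BA10 against A10 edgeR called 0 of the 15, and 7 had an unadjusted p under 0.05 (8.72% of all genes). Against A0, 12 of the 15 were not called in any comparison. Clock gene values with the length and GC trends removed are not reported here. Nr1d1, a repressor of the clock, was at 1.1, 1.86 and 1.49 CPM in BA10, at 2.1, 2.03 and 1.49 in BA0, at 2.38, 1.82 and 10.5 in A10 and at 1.87, 2.95 and 2.42 in A0, and Dbp, a clock output, was at 0.55, 0.465 and 0.606 CPM in BA10, at 0.699, 0.58 and 0.631 in BA0, at 0.753, 0.999 and 0.693 in A10 and at 0.869, 0.88 and 0.605 in A0. Nr1d1 and Dbp were chosen after their values were seen.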
